A study of Mus musculus with 10 samples.

Results

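miR-204 and miR-211 are microRNAs (miRNAs), short RNAs that pair through their seed (bases 2 to 8) with messenger RNAs and lower their output. Both arms of both hairpins were followed here: mmu-miR-204-5p, mmu-miR-204-3p, mmu-miR-211-5p and mmu-miR-211-3p, which were found by name as 4 of the 1061 mature miRNAs of a small RNA sequencing table of mouse retina. All 4 had a mean of at least 10, the minimum used for testing, as had 484 of the 1061 miRNAs.

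The study measured miRNAs in the retina after experimental short-sightedness. In wild-type C57BL/6J mice aged 24 days, a goggle with a -20 D lens was fixed in front of an eye under ketamine and xylazine, and the other eye was left without one. Retinas were taken after 10 days, at postnatal day 34. The labels give each retina as left or right without saying which eye wore the goggle. The groups are therefore 5 left and 5 right retinas of the same 5 mice (numbers 61, 64, 65, 66 and 68), 1 library each. Every comparison is right minus left within a mouse and cannot be read as the eye with the lens against the eye without. The light state at collection is not given in the labels.

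miR-204 lies in an intron of Trpm3 and miR-211 in an intron of Trpm1, genes of related cation channels. TRPM1 is the channel that opens in ON bipolar cells when light is detected, and it is also expressed in pigment cells, whereas TRPM3 is found in Müller glia and the pigment epithelium. Both miRNAs are abundant in the retinal pigment epithelium, where they are known to help maintain the epithelial state, and a change in the seed of human miR-204 causes an inherited retinal dystrophy with coloboma. In mouse retina both are also known as miRNAs whose level follows light and dark adaptation. Whole retinas were sequenced, so fewer cells of a type and less RNA per cell cannot be told apart.

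The mature sequences are shown because the pair of 5p arms is nearly identical while the pair of 3p arms is not. They are RefSeq entries on GRCm38.p6, written 5′ to 3′ with the seed in capitals.
miR-204-5p: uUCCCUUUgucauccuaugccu
miR-211-5p: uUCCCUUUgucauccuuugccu
miR-204-3p: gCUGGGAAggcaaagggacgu
miR-211-3p: gCAAGGACagcaaaggggggc

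The 5p arms were identical at 21 of 22 bases (95.5%) and shared their whole seed. The only difference was A17U, with the miR-204 base first and positions counted from 1 at the 5′ end. The 3p arms were identical at 14 of 21 bases (66.7%), with 7 substitutions, of which 3 fell in the seed (U3A, G4A and A8C), so they do not share a seed. The 3p arms were also richer in G and C, at 61.9% for miR-204-3p and 66.7% for miR-211-3p against 45.5% for each 5p arm. Among the mouse miRNAs of the sequence table, miR-7670-3p has the seed of the 5p arms and is not analysed here. miR-7684-5p has the seed of miR-204-3p and was at 0 in 8 of the 10 libraries, with a highest value of 1.95, so it was not tested.

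The hairpins show how the arms sit opposite each other, with the mature arms in capitals.
miR-204 hairpin: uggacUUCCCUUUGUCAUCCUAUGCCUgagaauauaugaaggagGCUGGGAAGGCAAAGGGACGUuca
miR-211 hairpin: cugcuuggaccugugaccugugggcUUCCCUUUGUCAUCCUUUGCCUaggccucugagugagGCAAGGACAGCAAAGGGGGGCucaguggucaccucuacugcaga

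In the structure of lowest predicted free energy, 17 of the 22 bases of the 5p arm were paired with the 3p arm in both hairpins, and so were all 7 bases of the seed. The letters AAAGGGA, the reverse complement of the 5p seed, occur in miR-204-3p from position 12 and not in miR-211-3p. The predicted free energy was -33.7 kcal/mol for the miR-204 entry of 68 bases and -57.6 kcal/mol for the longer miR-211 entry of 106 bases.

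On GRCm38, miR-204-5p lies on the forward strand at chr19:22750610-22750631 and miR-204-3p at chr19:22750649-22750669, inside Trpm3 (ENSMUSG00000052387.16, chr19:22139046-22995410). The hairpin was intronic in 18 of the 18 Trpm3 transcripts that span it, and lies in intron 6 of 25 of Trpm3-203. On the forward strand of chromosome 7, miR-211-5p lies at chr7:64205831-64205852 and miR-211-3p at chr7:64205868-64205888, inside Trpm1 (ENSMUSG00000030523.18, chr7:64153835-64269775). This hairpin was intronic in 12 of 12 spanning transcripts and lies in intron 6 of 26 of Trpm1-201, an intron of 3682 bp against 33462 bp for the Trpm3 intron. No other miRNA of the table lies in either host gene.

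The deposited values are called normalised counts, but they are not read numbers. Every library summed to 1.73e+07, and at 342 ranks the value was the same in all 10 libraries, as after quantile normalisation. A value therefore gives a miRNA's place in the order of its library, the depth is unknown, and no counting interval can be given. Between libraries the log2 values correlated at 0.98 to 0.99 (Pearson). The 6 miRNAs of the photoreceptor miR-183 cluster summed to 1.06e+07 in every retina, more than the rest of the library together. This cluster is the defining miRNA group of photoreceptors, and its main product miR-182-5p was the most abundant miRNA. The titles tie both retinas of a number to a mouse. The p-values between sides therefore set a mean difference against the spread of right minus left differences over these 5 animals. Those between mice set the mice against that same spread between the eyes of a mouse.

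The 4 miRNAs spanned more than 3 orders of magnitude, and their order by level was miR-204-5p, miR-211-5p, miR-211-3p and miR-204-3p. miR-204-5p, the arm that carries the known function of its hairpin, had a value of 203500 in each of the 10 libraries. It was the miRNA at rank 7 in every retina, 1.18% of the library total. The place above always had the value 280072 and was held by miR-26a-5p. The place below had 150447. The next mean, 141170, was shared by miR-127-3p and miR-30a-5p, and miR-127-3p (SD 9779, n = 10) was lower than miR-204-5p in 10 of 10 libraries. With identical values there is no fold change to test, and a difference in reads too small to change the order would not show on this scale.

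miR-211-5p had the same seed at a lower and far more variable level. In mouse 61 it was 14434 in the left and 15329.8 in the right retina. In mouse 64 it was 10406 and 12364.5, and in mouse 65 it was 9068 and 12948. In mouse 66 it was 6309 and 9745, and in mouse 68 it was 20982.5 and 17043. The left and right groups overlapped over most of their range, and mouse 68 alone was higher on the left. The left retina of mouse 66 was the lowest library and the left retina of mouse 68 the highest, 3.33-fold apart. By mean, 12863 ± 4286 (SD, n = 10), it stood at rank 34 and at 0.0743% of the total. Its neighbours in level, miR-151-3p at 13859 ± 1327 and miR-151-5p at 12624 ± 1591 (SD, n = 10), did not differ from it beyond its spread.

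The level of miR-211-5p varied between mice, though not past the adjusted threshold. Mouse means of both retinas ran from 8027 in mouse 66 over 11008, 11385 and 14882 in mice 65, 64 and 61 to 19013 in mouse 68. Between the means of log2 values of those mice the range was 2.41-fold, and it was 0.80 on the log2 scale without mouse 66 against 1.27 with it. Both retinas of mouse 66 were below both retinas of mice 61, 64 and 68. In the F test of the mouse term in limma, which was added after the values were seen, the unadjusted p was 0.00596 and the Benjamini-Hochberg adjusted p was 0.152, so the difference between mice did not pass. Of the 484 miRNAs tested, 8 passed that test after adjustment (1.65%) and 68 had an unadjusted p under 0.05 (14.0%), and 19 had a p as small as that of miR-211-5p or smaller.

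**Figure D1:**
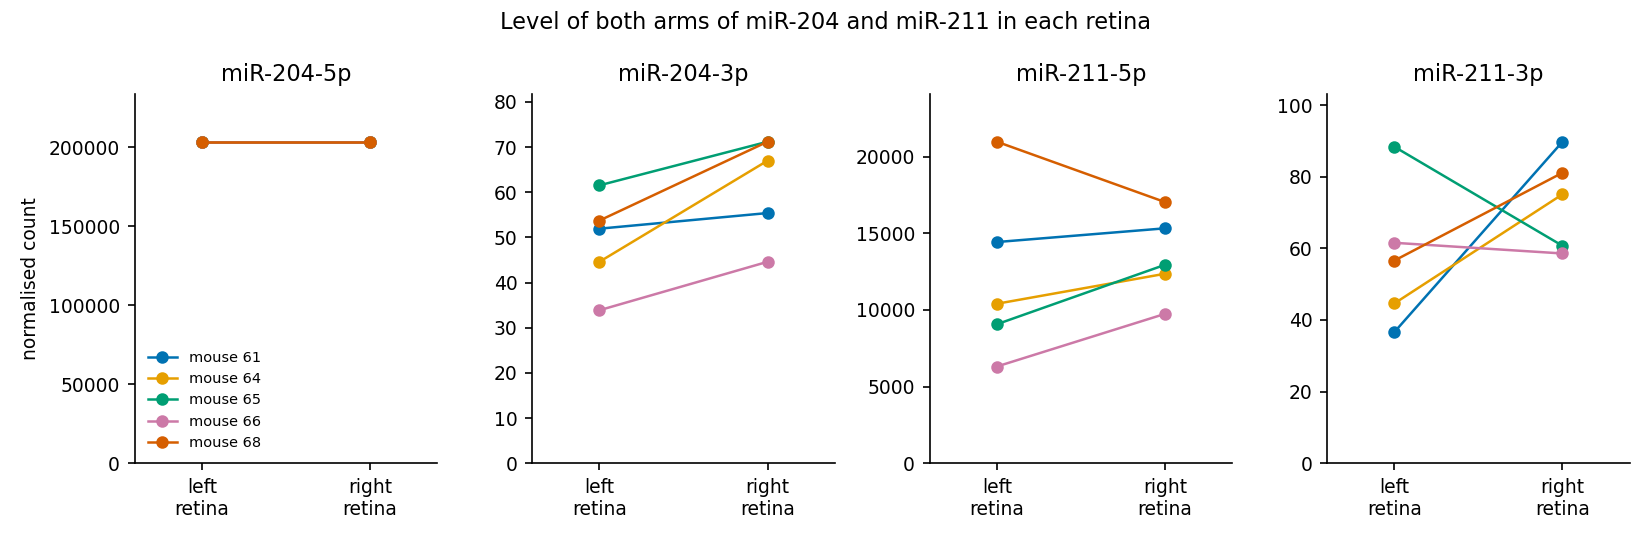
Normalised count (vertical axes, linear and different in each panel) of the 4 miRNAs in the left and right retina of each of the 5 mice, with a line joining the retinas of a mouse. miR-204-5p is flat at 203500, miR-204-3p slopes upwards in 5 of 5 mice, miR-211-5p in 4 of 5 and miR-211-3p in 3 of 5.

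The spread of miR-211-5p stood out for its level. Its SD of log2(value + 1) over the 10 libraries was 0.50, larger than that of 86.6% of the miRNAs tested, whose median was 0.28. Among the 33 miRNAs more abundant than miR-211-5p, 0 had a larger SD, so every miRNA with a larger spread was at a lower level. The 33 include miRNAs that were identical in all libraries, such as miR-182-5p and miR-204-5p. Since the values follow rank, these SDs do not measure the spread in reads. This is a description of the libraries, and no test was attached to it.

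**Figure D2:**
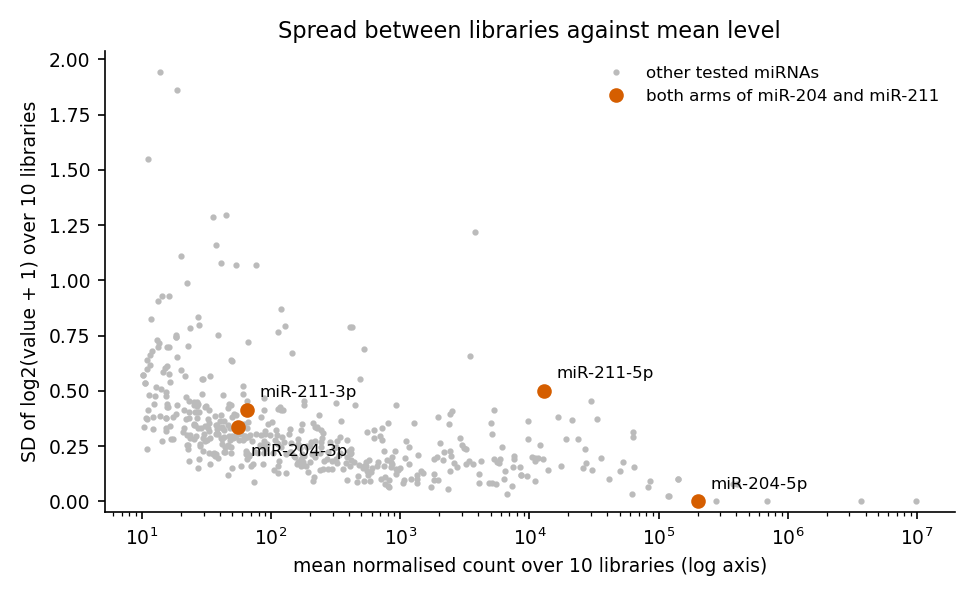
SD of log2(value + 1) over 10 libraries against mean normalised count (log axis) for the miRNAs tested, with both arms of miR-204 and miR-211 in colour. miR-211-5p, at a mean of 12863 and an SD of 0.50, lies above every miRNA to its right.

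The 5p arms share their seed, and miR-204-5p made up most of their summed level in every library. miR-211-5p supplied between 3.01% (left retina of mouse 66) and 9.35% (left retina of mouse 68). In those libraries miR-204-5p exceeded miR-211-5p by 32.3-fold and 9.70-fold. Since miR-204-5p was constant, these figures restate the range of miR-211-5p and are no separate result. They are ratios of normalised values and not shares of reads. How the authors assigned reads that end before base 17, where the 5p arms differ, is not given in the sources used here, and the part of such reads in the level of miR-211-5p was not tested.

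The 3p arms were in the lower part of the 484 miRNAs tested, of which 260 had a mean of at least 100. miR-204-3p was 51.9 in the left and 55.4 in the right retina of mouse 61, 44.6 and 67.0 in mouse 64, and 61.5 and 71.2 in mouse 65. It was 33.9 and 44.6 in mouse 66, and 53.7 and 71.2 in mouse 68. The groups overlapped, but the right retina was the higher one in each of the 5 mice, and mouse 66 was the lowest on both sides. Its mean was 55.5 ± 12.4 (SD, n = 10), rank 307, between miR-5121 at 56.9 and miR-879-3p at 54.7, from which it did not differ beyond its spread.

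miR-211-3p was 36.6 in the left and 89.8 in the right retina of mouse 61, 44.6 and 75.1 in mouse 64, and 88.4 and 60.7 in mouse 65. It was 61.5 and 58.6 in mouse 66, and 56.6 and 81.1 in mouse 68. The lowest and the highest library were the 2 retinas of mouse 61, so the sides of a mouse differed as much as any libraries did. Its mean was 65.3 ± 17.9 (SD, n = 10), rank 291, between miR-486a-3p at 65.5 and miR-7224-3p at 65.2, which lay within its spread, as did miR-204-3p.

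Right was compared with left to ask whether a retina of the eye pair differed from its fellow. No miRNA of the 484 tested passed the adjusted threshold of 0.05 in limma with the mouse as a block (0%), the smallest Benjamini-Hochberg adjusted p was 0.958, and 12 had an unadjusted p under 0.05. For miR-204-3p, the left mean was 49.1 ± 10.4 and the right mean 61.9 ± 11.6 (SD, n = 5 each). Its log2 fold change on the log2(value + 1) scale was 0.33 (SE 0.10, 95% interval 0.08 to 0.58), higher on the right in 5 of 5 mice, with an unadjusted limma p of 0.0177 and a Benjamini-Hochberg adjusted p of 0.958. This difference did not pass the test. Of the miRNAs tested, 9 were higher on the right in all 5 mice (1.86%), and 45 (9.30%) had a fold change at least as large in size.

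For miR-211-5p, the left mean was 12240 ± 5697 and the right mean 13486 ± 2810 (SD, n = 5 each). Its log2 fold change was 0.24 (SE 0.13, 95% interval -0.09 to 0.56), with a limma Benjamini-Hochberg adjusted p of 0.958, and was higher on the right in 4 of 5 mice. Mouse 68 differed from the rest, at -0.30 against 0.09 to 0.63. Without mouse 68 the fold change was 0.37, and without mouse 66, which had the largest difference, it was 0.14. For miR-211-3p the means were 57.5 ± 19.8 and 73.0 ± 13.3 (SD, n = 5 each). Its log2 fold change was 0.38 (SE 0.26, 95% interval -0.24 to 1.01), higher on the right in 3 of 5 mice, with a limma Benjamini-Hochberg adjusted p of 0.958. The differences of single mice ran from -0.53 in mouse 65 to 1.27 in mouse 61, and leaving out mouse 61 lowered the fold change to 0.16 while leaving out mouse 65 raised it to 0.61.

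**Figure D3:**
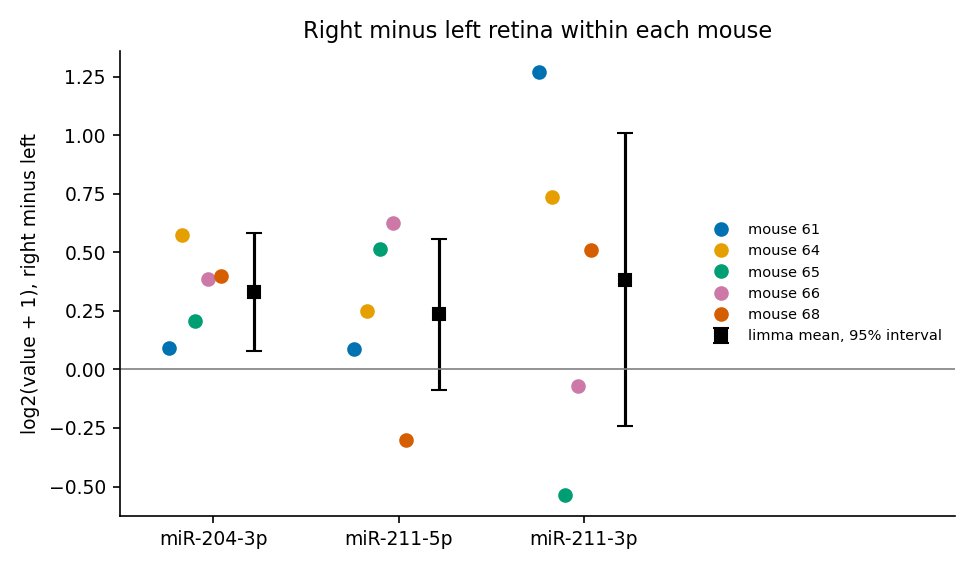
Right minus left difference of log2(value + 1) for the 3 miRNAs that varied, 1 point per mouse, with the limma mean and its 95% interval as a square and bar. The 5 points of miR-204-3p lie above 0, between 0.09 and 0.58, while points of miR-211-5p and miR-211-3p lie on both sides of 0.

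The 4 miRNAs had a median log2 fold change of 0.28, with 3 above 0 and 1 identical on both sides. Over all miRNAs tested, 224 were above 0 and 253 below, with a median of -0.01 and a median size of 0.09. Between mice, miR-204-3p ranged 1.69-fold, highest in mouse 65 and lowest in mouse 66, by means of log2 values, with a limma F test p of 0.0229 and a Benjamini-Hochberg adjusted p of 0.236. Without mouse 66 that range fell from 0.75 to 0.30 on the log2 scale, with a limma F test p of 0.375 and a Benjamini-Hochberg adjusted p of 0.753. miR-211-3p had a between-mouse range of 0.35 on the log2 scale, below the median of 0.46 over all miRNAs tested, with a limma Benjamini-Hochberg adjusted p of 0.973.

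The arms did not vary together in a common way. Over the 10 libraries, log2 levels of miR-204-3p correlated with those of miR-211-5p at 0.60 and with those of miR-211-3p at 0.42 (Pearson, a description, since both retinas of a mouse and the scaling are shared). The arms of miR-211 had a correlation of 0.00, and their right minus left differences had the same sign in 2 of 5 mice.

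The pattern of each arm that varied was compared over the 10 libraries with that of 477 other miRNAs. The miRNAs most like miR-211-5p were miR-3078-5p at a Pearson correlation of 0.91, miR-3059-5p at 0.86 and miR-7224-3p at 0.83. For miR-204-3p they were miR-467d-5p at 0.89, miR-322-5p at 0.79 and miR-6944-3p at 0.74. For miR-211-3p they were miR-877-5p at 0.84, miR-760-3p at 0.83 and miR-323-5p at 0.82. They are the highest of many correlations over few libraries, and no p is attached to them.

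**Figure D4:**
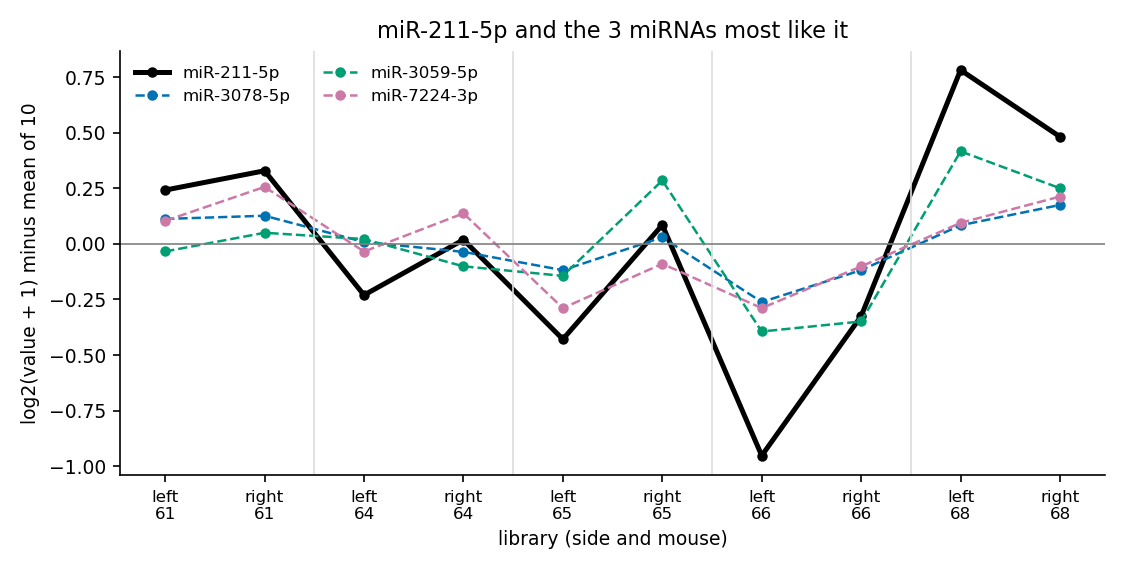
log2(value + 1) minus its mean over 10 libraries for miR-211-5p (solid) and the 3 miRNAs most like it (dashed), by mouse and side. miR-211-5p is lowest in the left retina of mouse 66 and highest in the left retina of mouse 68, and miR-3078-5p spans 457 to 619 in normalised count, is also lowest in the left retina of mouse 66, but is highest in the right retina of mouse 68 and moves the other way from left to right in mice 64 and 68.

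The 5p arm was the main product of both hairpins, and the preference was steeper for miR-204. The ratio of arms is taken within a library, and since adapter ligation favours some sequences it is not a molar ratio. For miR-204 the mean log2 ratio of 5p over 3p was 11.85 ± 0.34 (SD, n = 10), a 3687-fold difference, with single libraries between 2858-fold and 6008-fold on the unlogged values. It was the third largest in size of the 126 hairpins with both arms tested, after miR-182 at 15.02 and let-7g at 12.28. For miR-211 it was 7.58 ± 0.65 (SD, n = 10), a 191-fold difference and 18th in size, and the median size over the hairpins was 3.24, or 9.44-fold.

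The arm ratio of miR-211 was less steady than that of most hairpins, whose median SD was 0.36. The libraries on the left carried that spread, with an SD of 0.95 on the left and 0.19 on the right (n = 5 each). The difference right minus left was -0.15 (SE 0.43, exact sign-flip permutation test over 5 mice, two-sided p = 0.75), from -1.18 to 1.05 in single mice, and lower on the right in 3 of 5. Without mouse 61 it was 0.11 and without mouse 68 it was 0.02. For miR-204 the difference was -0.33 (SE 0.08), lower on the right in 5 of 5 mice. The same exact test gave the smallest two-sided p that 5 mice allow, which is above 0.05, and 0.125 after adjustment over both hairpins. Since miR-204-5p was constant, this is the difference of miR-204-3p seen from the other arm and no separate result.

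**Figure D5:**
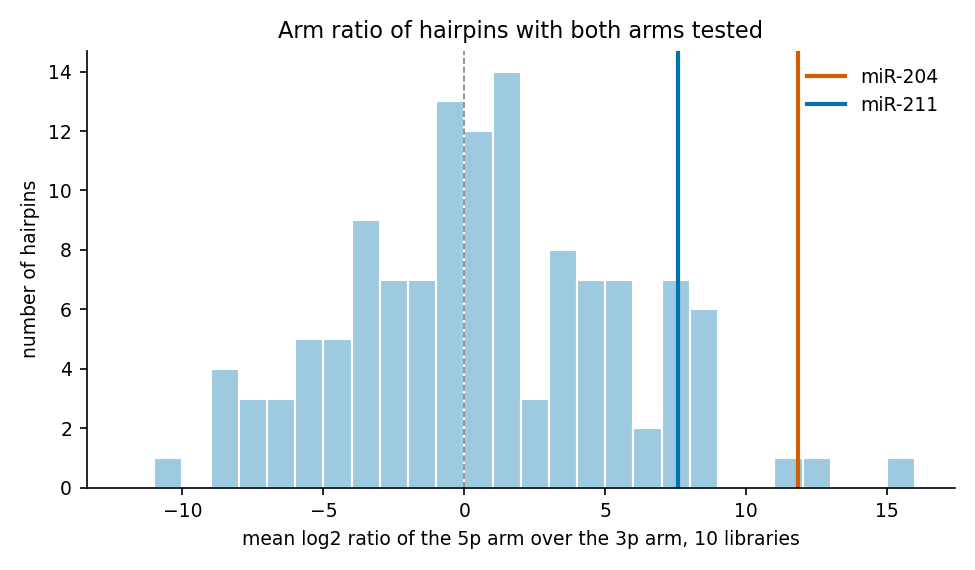
Number of hairpins (vertical axis) by mean log2 ratio of the 5p over the 3p arm over 10 libraries, for the 126 hairpins with both arms tested. The lines mark miR-211 at 7.58 and miR-204 at 11.85, which has 2 hairpins to its right.

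The list of light-responsive retinal miRNAs holds miR-204-5p and miR-211-5p themselves beside miR-183-5p, miR-182-5p and miR-96-5p, and miR-183-5p and miR-182-5p were identical in all libraries, as was miR-204-5p. miR-96-5p, of the same cluster as miR-183 and miR-182, varied, and its correlation with miR-211-5p over the 10 libraries was 0.58. Of the 5 miRNAs of this list, 0 passed in limma between sides, with 1 fold change above 0 (miR-211-5p), 1 below (miR-96-5p) and 3 identical. Over all 484 miRNAs tested, 5 were identical in all libraries, these 3 and miR-181a-5p and miR-26a-5p. Each had a value of at least 203500, so identity went with the highest places in the order and not with this list alone. Of the 6 miRNAs linked with Müller glia, 0 passed between sides, with 3 above 0, 2 below, 1 identical (miR-204-5p, which this list also holds) and a median log2 fold change of 0.02. Of this list miR-99a-5p passed between mice, with a limma F test Benjamini-Hochberg adjusted p of 0.0338. It was at 1753 to 1800 in the retinas of mice 65 and 66 and at 2508 to 3023 in those of mice 61, 64 and 68. Its correlation with miR-211-5p was 0.73, the highest of the 5 in the list that varied. Of those 5, 4 correlated above 0, and the lowest was miR-9-5p at -0.57.

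Of the 6 neuronal miRNAs, miR-128-3p passed between mice, with a limma F test Benjamini-Hochberg adjusted p of 0.0039. It was at 1535 to 2117 in mice 61 and 68, the mice with the highest miR-211-5p, and at 4352 to 4871 in mice 64, 65 and 66. Its correlation with miR-211-5p over the 10 libraries was -0.79, the lowest of the 6. The neuronal list had no common direction, since 3 of the 6 correlated with miR-211-5p above 0, up to 0.51 for miR-138-5p. The part of these differences between mice in the level of miR-211-5p was not tested.

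In 2 libraries the summed level of a list for tissue outside the retina was high. The 4 skeletal muscle miRNAs summed to 1742 in the left retina of mouse 68, the library with the highest miR-211-5p. In the others the sum was between 279 and 400. Each of the 4 had its highest value in that left retina. These values were 1596 for miR-133a-3p, 113 for miR-133b-3p, 26.6 for miR-1a-3p and 6.29 for miR-206-3p. Of the 4, miR-1a-3p and miR-206-3p were at 0 in a library of another mouse. The right retina of the same mouse had the lowest muscle sum, 279, and a miR-211-5p value of 17043, the second highest. The part of muscle RNA in the level of miR-211-5p was not tested. The 8 miRNAs of lens, cornea and surface epithelium summed to 22646 in the right retina of mouse 65 and to between 1233 and 2396 in the others, with miR-200c-3p at 0 in that and other libraries. Of the 22646, miR-184-3p alone made up 22384, while miR-200a-3p was at 0.20, its lowest value, and none of the other members was at its highest there. miR-211-5p in that retina, 12948, lay within the range of the other right retinas. In the muscle and epithelium lists, led by miR-133a-3p at 426 ± 413 and miR-184-3p at 3819.6 ± 6532 (SD, n = 10), 0 miRNAs passed in limma between sides or between mice.

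In 7 further lists, 0 miRNAs passed in limma between sides or between mice. Their most abundant members were miR-182-5p (photoreceptor), miR-181a-5p (inner retina), miR-486b-5p (erythroid), miR-150-5p (myeloid and lymphoid), miR-126a-5p (endothelial), miR-143-3p (pericyte and smooth muscle) and miR-199a-3p (connective tissue). Right minus left log2 fold changes of these 7 ran from -0.08 for miR-126a-5p to 0.24 for miR-199a-3p. The leading member did not stand for its whole list. In the connective tissue list 4 of 6 fold changes were below 0 and 2 above. The erythroid list, whose leading miR-486b-5p was at 0.17, had 3 of 5 below 0 and 2 above. In the neuronal list, miR-124-3p led at 82241 ± 3763 (SD, n = 10), and 0 of the 6 passed between sides. No list stood for the pigment epithelium, since miR-204 and miR-211 are themselves its best known miRNAs.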

How the data were processed

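Per the labels' protocols, small RNA was purified with the miRNeasy mini kit and 50 ng per sample entered TruSeq Small RNA libraries. The submitters' processing notes name Partek, Bowtie, GRCm38 and mm10. No source used here states how reads were trimmed, counted or normalised. The authors deposited a normalised signal for each miRNA and library, so no count test was used.

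The values were analysed as log2(value + 1) for miRNAs with a mean of at least 10, with limma 3.58.1 in R 4.3.3 (mouse as block, eBayes with trend, Benjamini-Hochberg over 484 miRNAs). The fit was run on simulated data with changes far larger than those of the 4 miRNAs and without quantile-like values. That run therefore cannot show how well changes of the size seen here would be found. Same-mouse deviations correlated at 0.0893 to 0.382, against a median of -0.0824 (-0.338 to 0.355) between mice, so the ranges overlap, and the pairing comes from the titles. Arm ratios were compared by an exact sign-flip test. Host introns came from GENCODE vM21 and structures from RNAfold 2.7.2. Tried instead were other pseudocounts, filters and scalings, ranks, no trend, no block and leaving out each mouse.

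Members and marker lists were chosen with earlier results of these data known. Named besides the members were seed mates, host-gene miRNAs, the 3 most alike, rank neighbours and, of 12 marker lists, the most abundant member and those that passed.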

Additional observations from a re-analysis of the deposited data

How the results depend on the processing

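Of 146 alternative values, 138 kept their direction and their side of the threshold or moved by less than the spread. Part of these could not move, so the count is no measure of robustness. Fold changes and between-mouse ranges are the same by construction under another filter or without the trend. The constant miR-204-5p gives 0 under every setting without rescaling. The count of miRNAs that passed between sides was 0 under every setting run, with 5 to 63 at an unadjusted p under 0.05 in limma. The 63 came without mouse 65. The count between mice went from 8 to 5 without the trend, 6 on ranks and 10 under median-ratio scaling, and to between 3 and 7 when a mouse was left out, with 3 without mouse 68, 4 without mouse 64 and 4 without mouse 66. With no replicate block the count between sides was also 0, the fold changes of 0.33, 0.24 and 0.38 were the same by construction, and the arm ratios had exact permutation p-values adjusted to 0.270 and 0.675. Median-ratio scaling gave miR-204-5p a log2 fold change of 0.015, which that scaling itself creates. The right minus left arm ratio of miR-211 ran from -0.45 to 0.11 when a mouse was left out, above 0 at 0.11 without mouse 61 and 0.02 without mouse 68, and the cause was not tested. The range of Benjamini-Hochberg adjusted limma p-values between sides over all alternatives was 0.333 to 1 for miR-204-3p, 0.586 to 1 for miR-211-5p and 0.349 to 1 for miR-211-3p, and between mice it was 0.221 to 0.753, 0.107 to 0.443 and 0.876 to 0.994. A minimum mean of 100 removed both 3p arms. Quantile-like values and unknown depth limit all of this, above all for miR-204-5p, whose rank never changed.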
